A study of Mus musculus with 4 samples.

Results

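The bone morphogenetic protein (BMP) ligands, receptors and antagonists were followed in the pregnant uterus as a list of 10 genes, which were chosen by name. The choice was made with earlier results of these data known. The list holds the ligand genes Bmp2, Bmp4, Bmp6 and Bmp7, the receptor genes Acvrl1, Eng, Bmpr1a and Bmpr2, and the antagonist genes Grem1 and Bmper. All 10 symbols were found among the 55421 genes counted. Levels are given as CPM, the counts of a gene per 1000000 counts of its library. The 8 genes that reached 1 CPM in 2 or more samples were tested, while Bmp7 and Grem1 were below this filter.

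BMPs are secreted dimers that bind a complex of type I and type II receptor kinases on the target cell. The active type I receptor phosphorylates SMAD1, SMAD5 and SMAD9, which enter the nucleus with SMAD4 and switch on targets such as the Id genes. Antagonists bind the ligands outside the cell. In the uterus BMP2 is needed for decidualization of the stroma, and in blood vessels the pathway acts on the endothelium through ALK1, the product of Acvrl1, and its co-receptor endoglin.

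Uterine RNA of pregnant mice at E18.5 was sequenced, with 2 libraries of WT (strain C57BL/6J) and 2 of Qa2- (strain B6.Cg-H2b3/FlaCmwJ, or B6.K1), each made strand-specifically from poly(A) RNA of whole-uterus lysate. B6.K1 is an H2 congenic strain without the Qa-2 antigen that arose spontaneously in crosses of congenic mice, so the groups differ in strain rather than in a single engineered gene. The methods give different suppliers for the strains, and supplier and genotype cannot be told apart. Per the methods, mice were paired within their own strain when 8 to 12 weeks old, and the labels of these samples name no treatment. The total count was between 33286390 and 41041299 read pairs per library, and both WT libraries were the deeper ones. A floor of 3 counts was between 0.0731 and 0.0901 CPM, and it covers counting error only. The Qa-2 genes H2-Q6 and H2-Q7 had at least 1192 counts in each WT library and at most 4 counts in each Qa2- library. Uterine genes (Hoxa10, Hoxa11, Esr1, Pgr, Myh11, Oxtr) passed the filter in this tissue. Some libraries carried genes of other tissues. The 7 trophoblast markers summed to 19.2 CPM in WT replicate 2, 3.61 CPM in Qa2- replicate 1 and at most 0.390 CPM in the others, and Prl3d1 and Gcm1 had 0 counts in all 4. Of the 5 yolk sac markers, Afp, Apoa4, Apob and Ttr were highest in Qa2- replicate 1, with 13253 counts of Afp against at most 1268 elsewhere. Rbp4 differed from these, with 39221 counts in WT replicate 1 and at most 545 elsewhere.

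Between WT and Qa2- uteri, the ligand gene Bmp6 and the receptor gene Eng were higher in both WT libraries, while Acvrl1, Bmpr1a, Bmpr2 and Bmper lay close to equal and Bmp2 and Bmp4 varied more between mice of the same group. Bmp6 was 2.42 times as high in WT and Eng 1.75 times, with log2 fold changes of WT over Qa2- of 1.27 (standard error 0.23) and 0.81 (standard error 0.23). In the edgeR quasi-likelihood fit, adjusted by Benjamini-Hochberg over 14492 genes, none of the 8 tested genes had an adjusted p under 0.05, and 0% of all genes did. At an unadjusted p under 0.05, 2 of the 8 were higher in WT and 0 lower, where 8.09% of all genes were higher and 7.09% lower. DESeq2's Wald test, run as an alternative, called Bmp6 alone among the 8 (adjusted p = 0.00234), where it called 2.79% of all genes as higher and 2.04% as lower in WT. The median log2 fold change of the 8 genes was 0.046, beside 0.012 over all genes. For a single gene in 2 against 2 libraries, an exact permutation test (two-sided) cannot go below p = 0.33. None of the 10 genes lies on chromosome 17, where the H2 complex is.

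**Figure D1:**
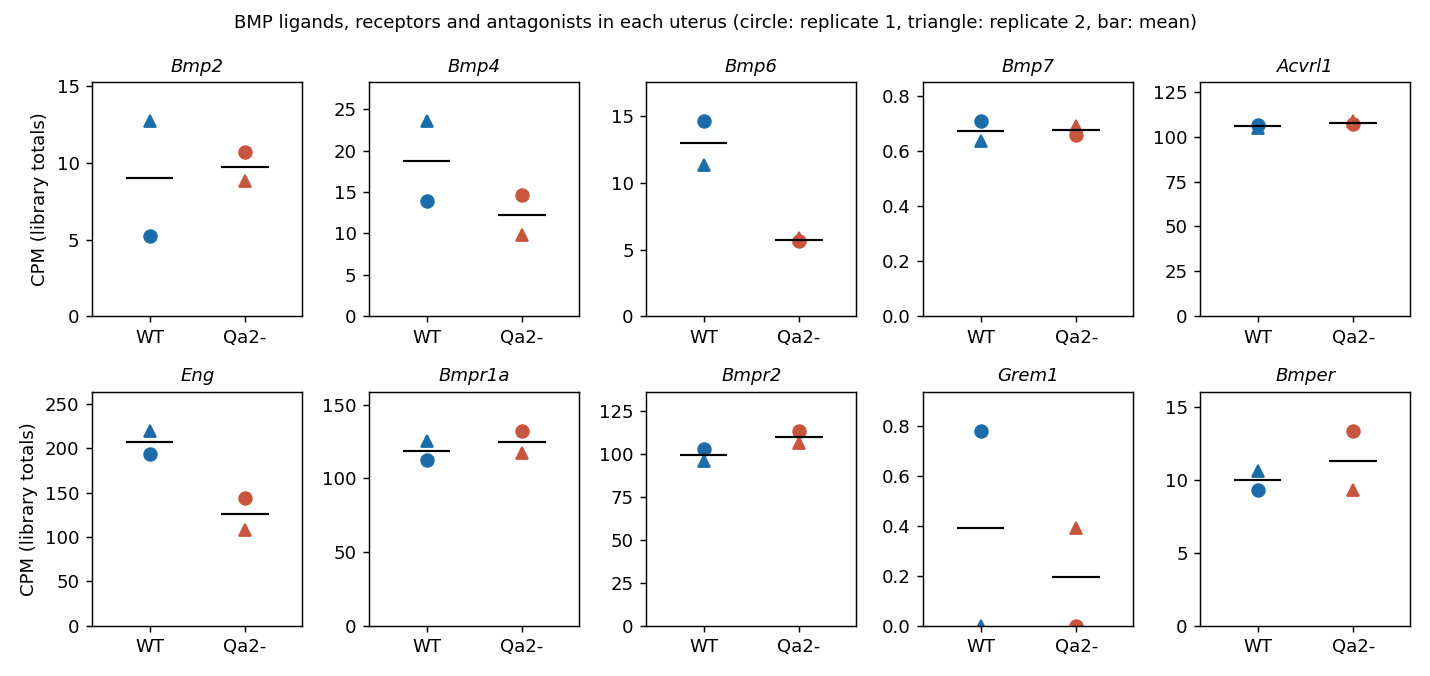
CPM of each of the 10 genes, from library totals, in the 2 WT and 2 Qa2- uteri. Circles are replicate 1, triangles replicate 2 and bars the group means, each axis starts at 0, and the groups stand clearly apart for Bmp6 and Eng.

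Bmp6 (ENSMUSG00000039004; chromosome 13 of GRCm38, 38345107 to 38500302) encodes a ligand that endothelial cells secrete and that is best known for controlling hepcidin and iron in the liver. Its counts were 600 in WT replicate 1, 448 in WT replicate 2, 196 in Qa2- replicate 1 and 195 in Qa2- replicate 2. In CPM these were 14.6 and 11.4 in WT and 5.61 and 5.86 in Qa2- uteri, so that the lower WT library was still well above both Qa2- libraries. The means were 12.995 ± 2.30 CPM (SD, n = 2) and 5.74 ± 0.174 CPM (SD, n = 2). The 95% interval of its log2 fold change ran from 0.68 to 1.87, with an unadjusted p of 0.00257 and an adjusted p of 0.246 in the edgeR quasi-likelihood fit. Leaving out single libraries gave log2 fold changes from 1.07 to 1.42. Txndc5 lies on the opposite strand and shares 224 exonic bases with Bmp6, and the counts were made by strand. In these whole-tissue samples, fewer cells that express a gene and less RNA per cell cannot be told apart.

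Bmp4 (ENSMUSG00000021835; chromosome 14, 46383520 to 46390669), a ligand close to BMP2 in structure, had 13.9 and 23.5 CPM in WT against 14.6 and 9.79 CPM in Qa2- uteri. The groups overlapped, since WT replicate 1 lay below Qa2- replicate 1. The log2 fold change was 0.71 (standard error 0.36, edgeR adjusted p = 0.405), and it was 0.26 without WT replicate 2. Bmp2 (ENSMUSG00000027358; chromosome 2, 133552159 to 133562885), the ligand of decidualization, had 5.26 and 12.7 CPM in WT against 10.7 and 8.80 CPM. Here the WT libraries enclosed both Qa2- libraries, and the log2 fold change was -0.020 with an interval from -1.19 to 1.15. Its log2 fold change was 0.46 when WT replicate 1 was left out and -0.82 when WT replicate 2 was. Bmp7 (ENSMUSG00000008999; chromosome 2, 172868012 to 172940321), whose product can pair with BMP2 or BMP4, was nearly silent. Its counts were 29 and 25 in the WT libraries and 23 in each Qa2- library, or between 0.635 and 0.707 CPM. The groups overlapped in CPM, but with TMM scaling both WT libraries lay above, where 25.4% of all tested genes did.

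Eng (ENSMUSG00000026814; chromosome 2, 32646595 to 32682669) encodes endoglin, a co-receptor on endothelial cells. It had 193.6 and 219.8 CPM in WT and 144.2 and 107.5 CPM in Qa2- uteri. Both WT libraries lay above both Qa2- libraries, although Qa2- replicate 1 came nearer to WT than Qa2- replicate 2. The means were 206.7 ± 18.53 CPM (SD, n = 2) and 125.9 ± 25.96 CPM (SD, n = 2), and the interval of the log2 fold change ran from 0.22 to 1.40. In the edgeR fit the unadjusted p was 0.0166 and the adjusted p 0.275. Without Qa2- replicate 2 the log2 fold change was 0.59 and the unadjusted p in the edgeR fit was 0.0967.

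Acvrl1 (ENSMUSG00000000530; chromosome 15, 101128522 to 101145336), which encodes the endothelial type I receptor ALK1 that signals with endoglin, was nearly level across the libraries. It had 106.4 and 104.95 CPM in WT and 106.8 and 108.5 CPM in Qa2- uteri. With TMM scaling its log2 fold change was 0.068 (interval -0.32 to 0.45), and with library totals alone it was -0.027, so its direction depended on the scaling. Bmpr1a (ENSMUSG00000021796; chromosome 14, 34410734 to 34503341), a type I receptor of wide expression, had 112.1 and 125.3 CPM in WT and 132.3 and 116.95 CPM in Qa2- uteri, with overlapping groups. Its log2 fold change was 0.024 (interval -0.43 to 0.48) with TMM scaling and -0.070 with library totals. Bmpr2 (ENSMUSG00000067336; chromosome 1, 59763400 to 59879014), the main type II receptor, had 103.1 and 96.3 CPM against 113.7 and 106.8 CPM. Its log2 fold change was -0.051 (interval -0.45 to 0.35). For these 3 receptors the intervals end short of the log2 fold change of Eng but overlap its interval (0.22 to 1.40). A difference between Eng and the other receptors was not tested.

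By TMM-scaled CPM, 3 of the 8 tested genes (Bmp6, Eng and Acvrl1) had both WT libraries above both Qa2- libraries and 0 had both below, where 25.4% and 24.5% of all genes did. With library totals alone the counts were 2 above (Bmp6 and Eng) and 2 below (Acvrl1 and Bmpr2), where 18.7% and 32.0% of all genes did.

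**Figure D2:**
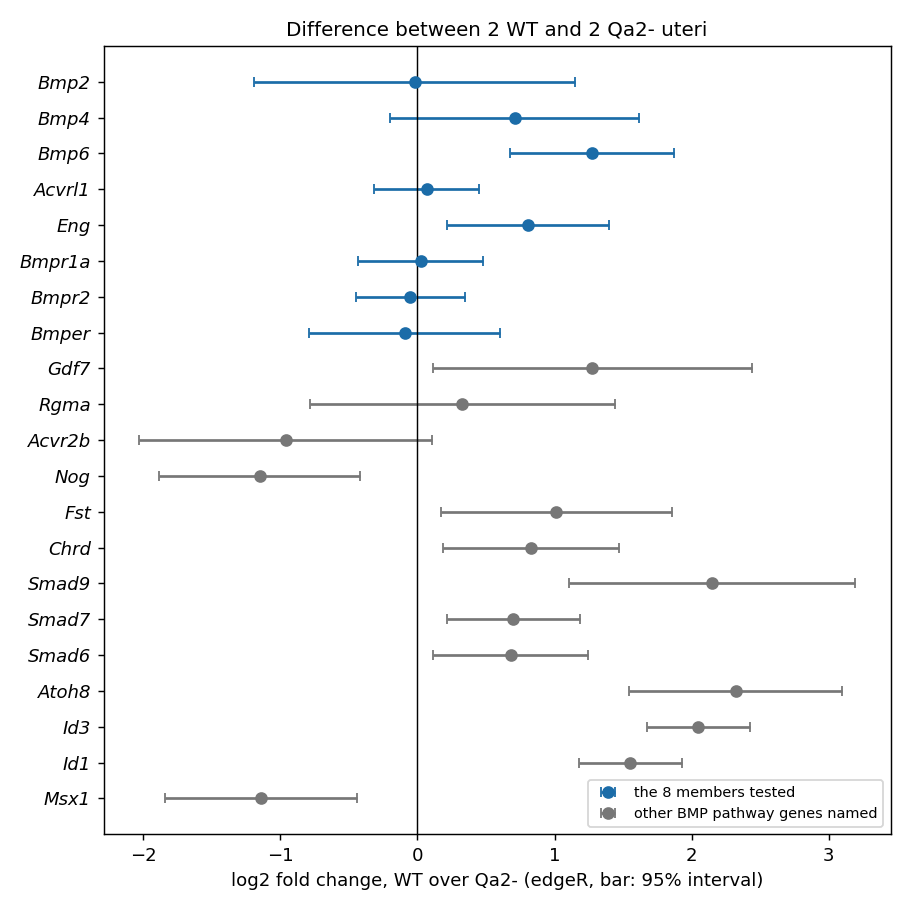
Log2 fold change of WT over Qa2- uteri from edgeR with its 95% interval, for the 8 tested genes in blue and other named genes of the pathway in grey. Of the 8, the intervals of Bmp6 (0.68 to 1.87) and Eng (0.22 to 1.40) lie above 0 and the others cross it.

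Of the antagonists, Bmper (ENSMUSG00000031963; chromosome 9, 23223076 to 23485200), a secreted BMP-binding protein of endothelial cells, had 9.31 and 10.6 CPM in WT and 13.4 and 9.28 CPM in Qa2- uteri. The Qa2- libraries enclosed both WT libraries, and the log2 fold change was -0.095 (interval -0.79 to 0.60). Grem1 (ENSMUSG00000074934; chromosome 2, 113746164 to 113758646) encodes gremlin, which binds BMP2 and BMP4. It was counted in WT replicate 1 and Qa2- replicate 2, with 32 and 13 counts, and had 0 counts in WT replicate 2 and Qa2- replicate 1. A count of 0 allows up to 0.0761 CPM in the former and 0.0859 CPM in the latter, so the libraries of each group differed from each other in Grem1 by more than counting error.

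To compare levels between genes, counts were divided by exonic length and scaled to the same sum in every library. On this per-length scale Eng was highest in all 4 libraries, from 77.3 to 166.9, and was followed in each by Acvrl1, from 69.6 to 78.6, and Bmpr1a, from 49.3 to 65.4. In Qa2- replicate 2 Eng and Acvrl1 were close, at 77.3 and 74.1. Bmp4, from 12.7 to 32.2, and Bmpr2, from 16.0 to 19.9, changed places between libraries. Bmp2, Bmp6 and Bmper also overlapped, between 4.13 and 10.995. In that group Bmp6 was the highest in WT replicate 1 and the lowest in both Qa2- libraries. Bmp7 and Grem1 stayed at 0.525 or less.

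**Figure D3:**
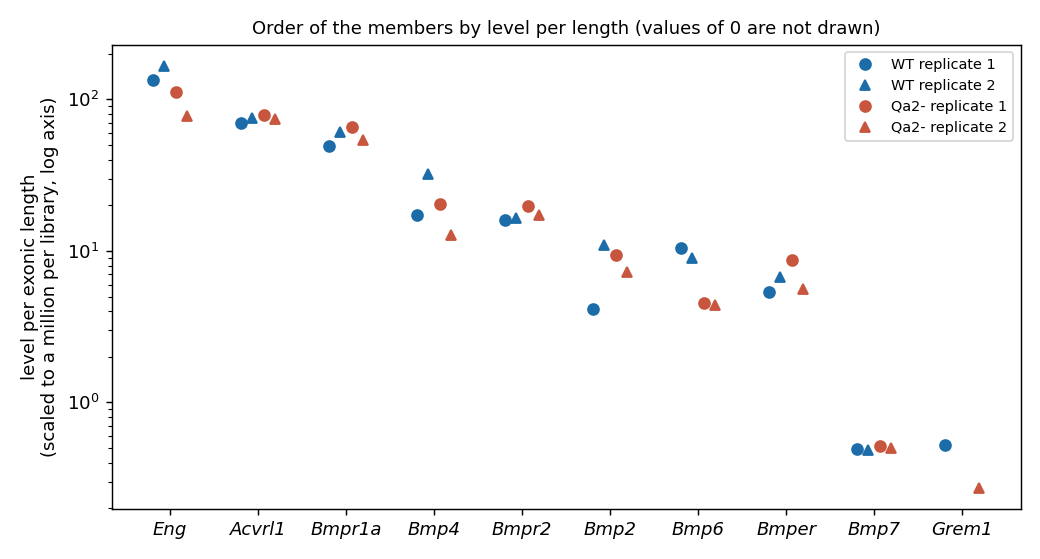
Level per exonic length of the 10 genes in each library on a log axis, with blue for WT and red for Qa2- uteri, ordered by the mean of the 4 libraries. Eng, Acvrl1 and Bmpr1a lie at the top, Bmp6 is split by group, and Grem1 has no point for the libraries at 0.

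The windows around the transcription starts of Bmp6 and Eng are shown because these genes set the WT libraries apart, beside that of the receptor gene Bmpr2, which differed little, and that of Id3, a direct target of the pathway. They come from a table of RefSeq windows (GRCm38.p6), in which 7 of the 10 genes were matched (not Bmp2, Bmp7 and Acvrl1), and run 5′ to 3′ from 250 bases before to 50 bases after the start. Capitals mark the SMAD box CAGAC or its reverse complement GTCTG, and the GC-rich SMAD site GGCGCC, which reads the same on both strands.
Bmp6 (chr13:38345466-38345765, plus strand): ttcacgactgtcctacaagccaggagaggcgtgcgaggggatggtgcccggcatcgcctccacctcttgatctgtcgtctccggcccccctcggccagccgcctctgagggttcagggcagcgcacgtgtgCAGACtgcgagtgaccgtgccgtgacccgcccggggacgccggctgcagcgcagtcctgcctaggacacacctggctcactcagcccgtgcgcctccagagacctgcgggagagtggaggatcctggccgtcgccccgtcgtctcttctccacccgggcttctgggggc
Eng (chr2:32646345-32646644, plus strand): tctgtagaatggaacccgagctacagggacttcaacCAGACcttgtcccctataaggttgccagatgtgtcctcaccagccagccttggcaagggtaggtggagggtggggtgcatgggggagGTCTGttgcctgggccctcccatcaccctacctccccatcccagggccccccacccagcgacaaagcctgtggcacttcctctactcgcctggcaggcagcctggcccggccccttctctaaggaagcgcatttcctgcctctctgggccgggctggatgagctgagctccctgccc
Bmpr2 (chr1:59764029-59764328, plus strand): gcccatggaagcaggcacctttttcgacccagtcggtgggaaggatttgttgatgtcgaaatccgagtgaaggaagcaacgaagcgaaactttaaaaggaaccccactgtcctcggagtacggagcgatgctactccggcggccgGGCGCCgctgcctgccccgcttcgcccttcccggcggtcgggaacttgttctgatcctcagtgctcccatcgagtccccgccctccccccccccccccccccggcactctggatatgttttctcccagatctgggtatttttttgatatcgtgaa
Id3 (chr4:136143572-136143871, plus strand): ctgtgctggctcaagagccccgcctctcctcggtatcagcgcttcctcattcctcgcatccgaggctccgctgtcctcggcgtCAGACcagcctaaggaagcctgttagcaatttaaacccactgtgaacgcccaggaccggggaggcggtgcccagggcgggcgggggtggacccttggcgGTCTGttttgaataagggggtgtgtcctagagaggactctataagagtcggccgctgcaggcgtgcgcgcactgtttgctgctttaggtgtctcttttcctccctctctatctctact

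Starts are those of the RefSeq table and can differ from the annotation used for counting. There Bmp6, Bmpr2 and Id3 begin further upstream, at 38345107, 59763400 and 136143497, so their windows lie inside the counted genes, as does that of Bmpr1a. The Bmp6 window held 1 SMAD box, 119 bases before the RefSeq start, and no GC-rich site. The Eng window held 2 SMAD boxes, 214 and 127 bases before the start, and so did that of Id3, 167 and 68 bases before it. The Bmpr2 window held 1 GC-rich site and no SMAD box. Over the 7 genes, 3 windows held a SMAD box (Bmp6, Eng and Grem1) and 3 a GC-rich site (Bmpr1a, Bmpr2 and Grem1). These short motifs are common, with a SMAD box in 49.6% and a GC-rich site in 11.9% of the 32851 windows in the table. The ETS-type motif CCGGAA, searched on both strands, was in 1 of the 7 (Bmp4) and in 14.9% of all windows. A match is a description of the letters and not a binding site.

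Markers of the endothelium were higher in WT beside Bmp6 and Eng. All 10 markers of the list (Pecam1, Cdh5, Kdr, Tek, Tie1, Esam, Cldn5, Emcn, Robo4 and Egfl7) were higher in both WT libraries, where 18.7% of all genes were so by CPM, with log2 fold changes from 0.61 to 1.66 and a median of 0.88. Single values moved with 1 library, to 1.09 for Cdh5 without WT replicate 1 and to 0.26 for Robo4 without WT replicate 2. Their summed level was 1386 and 1223 CPM in WT against 663.5 and 654.4 CPM in Qa2- uteri, and 9 of the 10 had an unadjusted p under 0.05 in the edgeR fit, where 8.09% of all genes were higher at that p. Mesothelial markers differed most by median, at 3.79 in log2. All 4 (Msln, Upk3b, Lrrn4 and Nkain4) were higher in WT at an unadjusted p under 0.05, and they summed to 62.6 and 50.6 CPM in WT against 21.2 and 12.1 CPM in Qa2- uteri. The 4 haemoglobin genes had 345.1 and 671.4 CPM in WT against 112.3 and 76.8 CPM. Smooth muscle markers summed to between 13490 and 43080 CPM and 6 of 8 were higher in both WT libraries, and 6 of 8 epithelial markers were lower in both WT libraries, where by CPM 18.7% of all genes were higher in both and 32.0% lower in both. Of 8 stromal and decidual markers 3 were higher and 1 lower in both WT libraries. Among 5 tested leukocyte markers 2 were higher and 1 lower in both. The decidual marker Prl8a2 set WT replicate 1 apart, at 106.9 CPM against 1.95 CPM in WT replicate 2 and 3.98 and 13.9 CPM in Qa2- uteri. The part of these cell types in the BMP values was not tested.

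Set against the summed counts of the endothelial list in the same library, Bmp6 had 10.5 and 9.30 counts per 1000 in WT and 8.46 and 8.95 in Qa2- uteri. On this scale WT stayed above by 0.19 in log2, where it was above by 1.27 in the comparison of whole libraries. Eng had 139.7 and 179.7 counts per 1000 endothelial counts in WT and 217.4 and 164.3 in Qa2- uteri, with overlapping groups. Acvrl1 had 76.8 and 85.8 counts per 1000 in WT against 161.0 and 165.8, which put WT below by 1.01 in log2. Bmpr1a, Bmpr2, Bmper and Bmp2 were also lower in both WT libraries on this scale, by 1.04 to 1.16 in log2. Dividing by the endothelial sum moved all 46 tested BMP and pathway genes alike, by -1.11 to -1.03 in log2 (median -1.07), so a value below 0 on this scale follows from the scaling for any gene that was higher in WT by less than that or was level. Of the summed counts, Cdh5 gave 17834 of 56871 in WT replicate 1 and 9014 of 48188 in WT replicate 2. In Qa2- uteri it gave 4112 of 23170 and 3678 of 21783. The median log2 fold change of the 10 markers, 0.88, was smaller in size than the shift of -1.07, so values on this scale depend on the choice of the sum. These ratios were chosen after the values were seen and carry no test.

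**Figure D4:**
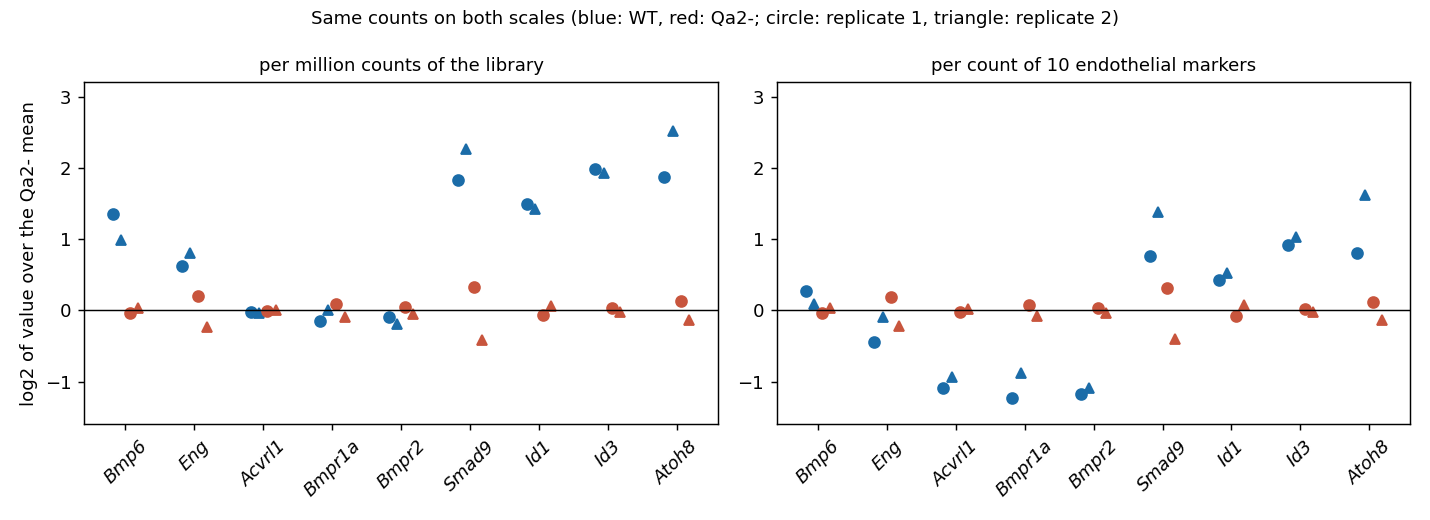
Log2 of each library's value over the Qa2- mean, in CPM on the left and per count of the 10 endothelial markers on the right, with blue for WT and red for Qa2- uteri. Bmp6 and Eng come close to 0 on the right, the other receptors lie below it, and Smad9, Id1, Id3 and Atoh8 stay above, after a shift of about -1.07 that the scaling gives every gene.

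The rest of the pathway was read from 48 further genes, of which 38 passed the filter. At an unadjusted p under 0.05 in the edgeR fit, 14 of the 38 were higher and 3 lower in WT, where 8.09% and 7.09% of all genes were, and none had an adjusted p under 0.05. DESeq2's Wald test called 6 as higher and 2 as lower, where it called 2.79% and 2.04% of all genes. The median log2 fold change was 0.36. The lists of these genes were chosen with earlier results of these data known. Their counts, here and list by list below, are therefore descriptive and carry no test against the shares of all genes.

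Among 9 other ligand genes 4 were tested, and Gdf7 alone had an unadjusted p under 0.05, where 8.09% of all genes were higher and 7.09% lower at that p. Counts among so few genes are not set apart from these shares. Gdf7, a ligand of the GDF5 group, had 17.1 and 42.5 CPM in WT against 14.4 and 11.96 CPM, a log2 fold change of 1.28 (standard error 0.46), which was 0.45 without WT replicate 2. Bmp10 and Gdf2, the genes of the ligands with the highest affinity for ALK1, had 0 counts in all 4 libraries. Among 7 other receptor and co-receptor genes 6 were tested and 0 had an unadjusted p under 0.05, with log2 fold changes from 0.33 for the co-receptor Rgma to -0.96 for the type II receptor Acvr2b. Rgma changed direction with 1 library, from -0.42 without WT replicate 2 to 0.79 without WT replicate 1, and Acvr2b ran from -1.55 without WT replicate 1 to -0.56 without WT replicate 2.

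Of 15 other antagonist genes 12 were tested, and 5 were higher and 2 lower in WT at an unadjusted p under 0.05, where 8.09% and 7.09% of all genes were. Nog encodes noggin, which binds BMP2, BMP4 and BMP7, and was lower in WT. It had 8.02 and 12.6 CPM in WT against 21.5 and 27.7 CPM in Qa2- uteri, without overlap. WT over Qa2- came to -1.15 in log2, with a standard error of 0.29, an edgeR adjusted p of 0.257 and a DESeq2 adjusted p of 0.023. Of the 12, DESeq2's Wald test called 1 as lower (Nog) and 1 as higher (Nbl1, adjusted p = 0.0381), where it called 2.04% and 2.79% of all genes. Nbl1 had 529 and 430 CPM in WT against 321 and 275 CPM, a log2 fold change of 0.78. Fst and Chrd, which encode follistatin and chordin, were higher in both WT libraries with log2 fold changes of 1.01 and 0.83. Without WT replicate 2 the value of Fst was 0.54.

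Of 9 genes for SMADs and their regulators, 3 were higher and 0 lower in WT at an unadjusted p under 0.05, where 8.09% and 7.09% of all genes were. The receptor-activated Smad9 had 5.12 and 6.93 CPM in WT against 1.80 and 1.08 CPM, a log2 fold change of 2.15 (standard error 0.41). Smad6 and Smad7, the inhibitory SMADs that the pathway itself induces, had log2 fold changes of 0.68 and 0.70. Smad1, Smad5 and Smad4 lay between -0.12 and 0.34. Of 7 target genes tested, 5 were higher and 1 lower in WT at an unadjusted p under 0.05, where 8.09% and 7.09% of all genes were. By TMM-scaled CPM 6 lay higher in both WT libraries, where 25.4% of all genes did. Id3 had 81.7 and 78.1 CPM in WT against 20.99 and 20.2 CPM, a log2 fold change of 2.05 (standard error 0.15, edgeR adjusted p = 0.197). Id1 followed with 1.55 (standard error 0.15) and Atoh8 had 2.32 (standard error 0.31), and the groups of all 3 were far apart. Msx1, a homeobox gene of the uterine epithelium and stroma, was lower in WT, by a log2 value of -1.14 (standard error 0.27). On the scale of endothelial counts, WT stayed above in both libraries for Smad9, Id1, Id3 and Atoh8, by 1.10, 0.48, 0.97 and 1.27 in log2. Smad6, Smad7 and Msx1 were at -0.40, -0.37 and -2.23 in log2 on this scale, and the common shift of the scaling sets the turned direction of Smad6 and Smad7. The groups overlapped for Id2, Hey1 and Id4, at -0.14, -0.045 and -0.36. In the comparison of whole libraries these genes were higher in both WT libraries, by 0.95, 1.04 and 0.69 in log2, so the shift sets their signs too.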

How the data were processed

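RNA sequencing libraries of whole uteri from 2 WT and 2 Qa2- mice at E18.5 were compared, grouped by sample title. The authors deposited raw counts, as whole read pairs for each gene and not normalized. Per the file headers these were made with featureCounts 2.0.0 on a GRCm38 annotation, on the reverse strand, requiring both mates to be mapped and a quality score of 3 or more, and leaving out pairs with several positions or genes. The submitters' processing notes name STAR 2.7.3a and GRCm38.p6. Symbols were matched by gene ID for 55154 of 55421 genes.

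CPM were computed from library totals. Genes reaching 1 CPM in 2 or more samples (14492) were compared by edgeR 4.0.16 in R 4.3.3 (TMM factors 0.957 to 1.05, glmQLFit and glmQLFTest, Benjamini-Hochberg adjustment). TMM moved all log2 fold changes up by about 0.095. Alternatives included DESeq2 1.42.0, other scalings and filters, a replicate block and leaving out each library. Replicates of a group differed by more than sampling noise, and the series text names 2 mice per group, so p-values measure the spread between these 4 libraries.

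Genes were named by a rule: the 10 members, and of each pathway list up to 4 genes with an unadjusted p under 0.05 and no overlap, otherwise the largest and smallest log2 fold change. Some others, such as Nbl1, are named besides. A gene that the rule names is not reported here. Members and lists were chosen with earlier results of these data known.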

Additional observations from a re-analysis of the deposited data

How the results depend on the processing

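Without a block and with TMM scaling, edgeR called 0 of all genes, 0 of the 8 tested BMP genes and 0 of the 38 other pathway genes. For the changes listed here, the cause was not tested. DESeq2 called 700 genes, 1 of the 8 (Bmp6) and 8 of the 38. Without a filter edgeR called 61 genes and 3 (Id1, Id3 and Atoh8) of the 44 other pathway genes then tested. With the replicate block 2 genes were called in all, and the numbers at an unadjusted p under 0.05 were 1331 genes, against 2199, and 11 of the 38, against 17. The deviations of same-numbered samples correlated at -0.395, and pairing them crosswise, an alternative chosen after seeing the data, gave 0 calls and 3625 genes at an unadjusted p under 0.05. With each library left out in turn, from 0 to 93 genes were called in all, the most without WT replicate 2, and from 0 to 2 of the 38 (Id1 and Id3, without WT replicate 2). The numbers at an unadjusted p under 0.05 then ran from 818 to 2288 genes, from 1 to 3 of the 8 and from 7 to 20 of the 38, each lowest without Qa2- replicate 2. A left-out library leaves a lone sample, assumed to vary like the other group.

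With library totals alone, log2 fold changes turned to -0.027 for Acvrl1 and -0.070 for Bmpr1a. Leaving out libraries moved Bmp2 between -0.82 and 0.46, Bmpr1a between -0.085 and 0.14, Bmpr2 between -0.12 and 0.020 and Bmper between -0.35 and 0.22. Bmp6 was positive with an unadjusted p under 0.05 in all 13 fits, and Eng in 12, the exception being the fit without Qa2- replicate 2. With a filter of at least 10 counts in every sample, 9 of the 10 BMP genes were tested, Bmp7 included, with 0 called and 2 at an unadjusted p under 0.05.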

Other observations

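The make-up of the ligand transcripts differed between the libraries, in values chosen after they were seen and not tested. On the per-length scale, Bmp2, Bmp4, Bmp6 and Bmp7 together came to 32.4 and 52.6 in WT replicates 1 and 2 and to 34.9 and 24.8 in Qa2- replicates 1 and 2, so the groups overlapped in the sum. Bmp4 held the largest part in each library, between 51.2% and 61.2%. Bmp6 held 32.4% and 17.03% in WT against 12.95% and 17.7% in Qa2- uteri, and Bmp2 held 12.8% and 20.9% against 27.1% and 29.1%. Bmp7 held at most 2.02%.

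The ratios that follow were also chosen after the values of both genes were seen, so they restate those values and carry no test. The level of Bmp6 relative to that of Nog, both per length, was 0.793 and 0.392 in WT and 0.114 and 0.0919 in Qa2- uteri. Eng relative to Acvrl1 was 1.92 and 2.21 in WT and 1.42 and 1.04 in Qa2- uteri, while Bmpr2 relative to Bmpr1a stayed between 0.272 and 0.325 in all 4 libraries. Smad9 relative to Smad1 was 0.111 and 0.150 in WT against 0.0506 and 0.0255.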
